A study of Mus musculus with 18 samples.

Results

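Interferon-stimulated genes are the genes that cells switch on when an interferon binds its receptor. Type I and type III interferons activate the Janus kinases Jak1 and Tyk2, which phosphorylate Stat2. Stat2 and Irf9 are subunits of the complex ISGF3, which binds the interferon-stimulated response element (ISRE), while interferon gamma acts through the gamma-activated site (GAS). The products of the induced genes sense foreign nucleic acid, block steps of virus replication, or feed back on the pathway itself, and many of them keep a low level in resting lymphocytes through tonic interferon signalling.

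A list of 41 such genes was followed by gene name, and 38 of them had a row in at least 1 table of read counts. The 129 tables held 37 members among 40327 genes, the Cast tables held 37 among 39147, and 36 members could be matched between the strains. Mx1 had a row in the 129 tables alone and Mx2 in the Cast tables alone. No row under the names Oas1a, Ifit3 or Ifit3b was found in the tables used here. All 38 members lie on autosomes.

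The cells were CD23+ B cells from the spleens of female mice, first-generation (F1) offspring of 129S1 and Cast parents. CD23, encoded by Fcer2a, is a surface receptor of mature follicular B cells. Every sample, control or stimulated, carried the same genotype, Xist+/-, and in every sample the Cast X chromosome was the inactive one. The 3 naive samples received no treatment, and the 3 stimulated samples were exposed in vitro to 1 µM CpG for 24 h. CpG DNA is a ligand of Toll-like receptor 9, and naive B cells divide and differentiate in its presence. The labels name no cultured group without CpG at 24 h, so effects of culture and of CpG cannot be told apart. They do not say whether the replicates came from separate animals, so p-values measure the spread between these samples, which may be technical. Of 18 samples in the series these 6 are described, and 12 of a different cross were not used here.

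Each sample was counted once against the 129 annotation and once against the Cast annotation. The 36 members matched between the strains thus have a count for each allele. Gene reads per sample ran from 1987266 to 2928236 in the 129 tables and from 2465073 to 3321753 in the Cast tables. Levels below are normalised counts scaled to a common library size (CPM), and they are not divided by gene length. They are shares of a library, so a lower level need not mean fewer transcripts per cell. Of the 8 B cell markers examined, all had reads in every sample group, with summed levels of 7978 to 10151 CPM in naive and 3246 to 4707 CPM in stimulated 129 tables. The naive samples also held red pulp macrophage transcripts. Summed over 16 markers of that cell type, the 129 level was 7490, 3629 and 4398 CPM in the naive samples and 35.7, 25.7 and 34.7 CPM in the stimulated ones. In bulk samples, fewer cells of a type and less RNA per cell cannot be told apart.

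Promoter windows of 17 members hold the core of the element that names the group, and those of 15 do not. Of the 41 members, 32 had a promoter window in RefSeq (assembly GRCm38.p6, the C57BL/6 reference and not the 129 or Cast sequence), from 250 bases before to 50 bases after the transcript start. The ISRE core (GAAANN followed at once by GAAA), read on both strands, was found in 17 of the 32 (53.1%) and in 3.99% of the 27025 genes with a window. Counting only the bases before the start left 13 members (40.6%) against 3.46% of genes, and the longer form (GAAANN followed by GAAAC) was found in 15 members (46.9%) against 0.944%. The GAS pattern TTCNNNGAA was found in 10 members (31.3%) and in 9.55% of genes. A match is a string of letters and not a measured binding site, and these elements can overlap.

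Stretches of 80 bases are shown for 6 members whose levels are described below, with the ISRE core in capitals. Rsad2 (chr12:26456528-26456607, minus strand), Ifit1 (chr19:34640759-34640838, plus strand) and Gbp2 (chr3:142620569-142620648, plus strand) hold the core before the start and were lower after CpG. Bst2 (chr8:71537555-71537634, minus strand) holds 2 overlapping cores and was the member with the largest rise. Irf7 (chr7:141266425-141266504, minus strand) and Ifit2 (chr19:34550614-34550693, plus strand) have no core in the window, and their 80 bases end at the base before the start.
Rsad2: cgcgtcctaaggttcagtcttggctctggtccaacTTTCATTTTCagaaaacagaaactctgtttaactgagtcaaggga
Ifit1: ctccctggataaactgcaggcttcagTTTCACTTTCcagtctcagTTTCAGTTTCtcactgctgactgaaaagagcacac
Gbp2: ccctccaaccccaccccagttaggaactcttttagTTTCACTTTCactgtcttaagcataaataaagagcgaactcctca
Bst2: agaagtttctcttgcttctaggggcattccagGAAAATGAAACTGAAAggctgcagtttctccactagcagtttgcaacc
Irf7: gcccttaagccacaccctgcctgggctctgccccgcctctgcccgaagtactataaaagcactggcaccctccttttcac
Ifit2: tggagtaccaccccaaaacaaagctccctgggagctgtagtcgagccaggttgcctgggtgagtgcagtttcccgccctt

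After 24 h of CpG, most of the measurable interferon-stimulated genes were lower than in naive cells, on both alleles. The falls ran from large ones in Irf7, Rtp4, Rsad2 and Ifit1 to small ones in Ifi35 and Adar. The members summed to 3201, 2976 and 2542 CPM in the naive and 1244, 1413 and 998 CPM in the stimulated 129 tables, and the sums of the groups did not overlap. In the Cast tables the sums were 3175, 2989 and 2983 CPM against 996, 1146 and 932 CPM. Eif2ak2 rose on both alleles and Bst2 rose on the Cast allele.

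Of the 37 members with a row in the 129 tables, 30 had enough reads to be tested. By edgeR's quasi-likelihood test with Benjamini-Hochberg adjustment at 0.05, 22 of them fell, 1 rose and 7 did not pass, where 27.0% of the 10581 genes tested fell and 28.2% rose. In the Cast tables, 24 of 30 tested members fell, 2 rose and 4 did not pass, where 31.5% of 10365 genes fell and 30.7% rose. Tested members had a median log2 fold change of -1.27 (129) and -1.67 (Cast), against -0.01 and -0.04 over all genes. The naive and stimulated samples did not overlap for 25 tested members in the 129 tables (64.8% of all genes) and for 27 in the Cast tables (68.5% of all genes). Some members could be tested only because their naive level was high, namely Ifit1, Mx1 and Ifitm3 in the 129 tables and Irf7, Ifit1, Ifit2 and Rsad2 in the Cast tables. Counted over all rows, tested or not, the stimulated mean was the lower one for 35 of 37 members in the 129 tables and 34 of 37 in the Cast tables. Over all named genes with a read, it was the lower one for 54.2% (129) and 55.0% (Cast).

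The alleles gave like calls. Among 28 members tested in both sets of tables, 19 fell in both, Eif2ak2 rose in both and none was called in opposite directions. Of the 8587 genes tested in both, 24.0% fell in both and 24.9% rose in both. Bst2, Dtx3l, Isg20, Parp9 and Trim25 were called in 1 set of tables alone, and Ifih1, Isg15 and Trim30a in neither.

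**Figure D1:**
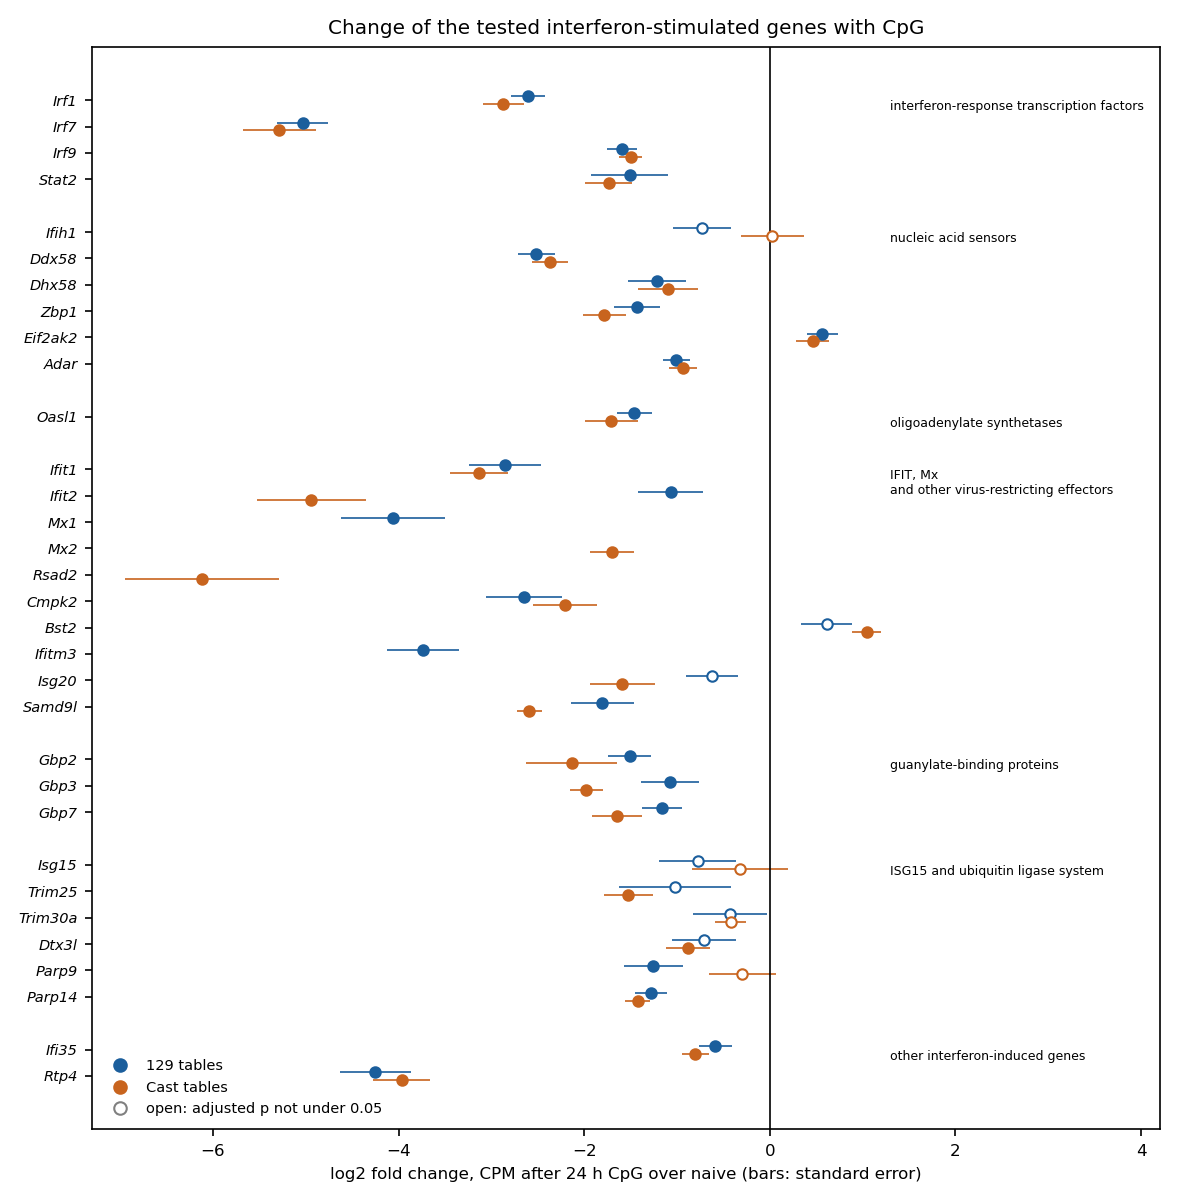
Log2 fold change of each tested member with CpG (x axis, CPM after 24 h CpG over naive) in the 129 tables (blue) and Cast tables (orange), grouped by role. Bars are standard errors from 3 samples a group and open circles did not pass an adjusted p of 0.05. Nearly all points lie left of 0, and Eif2ak2 and Bst2 lie right of it on both alleles, although Bst2 in the 129 tables did not pass.

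**Figure D2:**
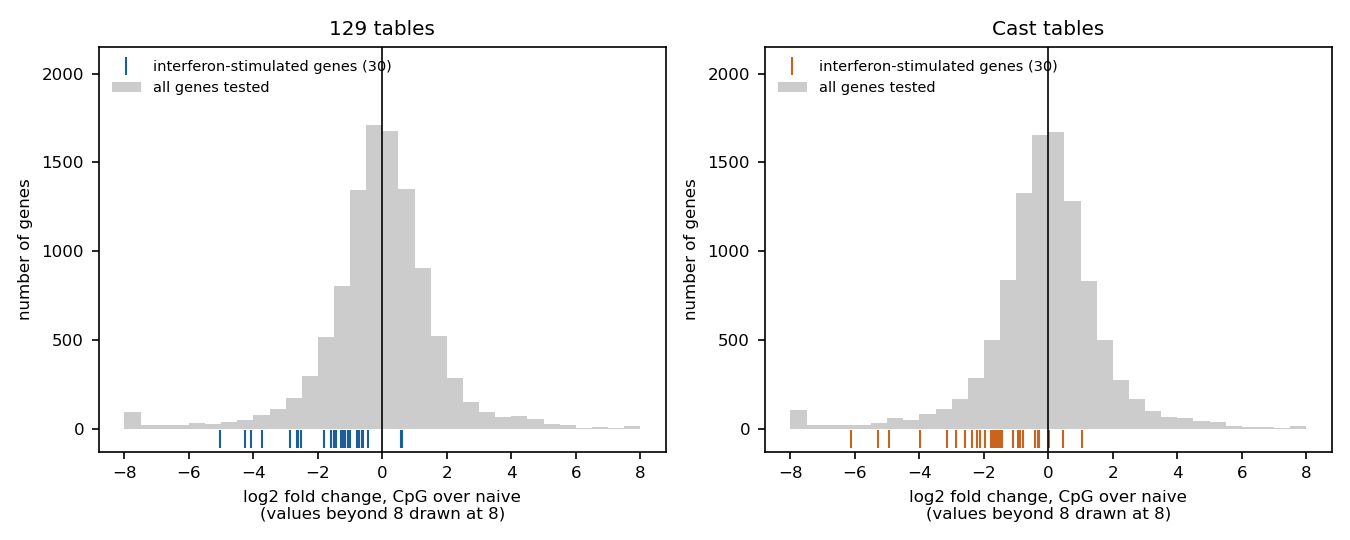
Number of genes (y axis) by log2 fold change with CpG (x axis) for all genes tested in the 129 tables (left) and Cast tables (right), with the 30 tested members of each drawn as ticks. All genes centre near 0 and the members' ticks lie mostly below it, with medians of -1.27 and -1.67.

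The 4 transcription factors of the response all fell on both alleles. Irf7, the factor that drives induction of the type I interferon genes, stood at 137, 104 and 97.6 CPM in the naive and 4.64, 3.17 and 2.43 CPM in the stimulated 129 tables. On the Cast allele Irf7 stood at 46.8, 39.1 and 25.6 CPM against 1.25, 0.920 and 0.588 CPM. The groups lay far apart on each allele, and the naive Cast values were all below the naive 129 values. The log2 fold change was -5.03 (SE 0.27, adjusted p = 1.66e-05, edgeR) in the 129 tables and -5.28 (SE 0.39, adjusted p = 4.72e-06) in the Cast tables. Irf1, which responds to interferon gamma and inflammatory signals, went from 181, 196 and 149 CPM to 25.3, 26.0 and 35.0 CPM on the 129 allele and from 133, 157 and 115 CPM to 16.0, 24.8 and 14.7 CPM on the Cast allele. That is a log2 fold change of -2.60 (SE 0.18) and -2.87 (SE 0.22), with no overlap of the groups. The ISGF3 subunits fell less. Irf9 changed by -1.59 and -1.50 on the log2 scale, with naive means of 167 ± 21.1 and 133 ± 3.56 CPM (SD, n = 3 each) in the 129 and Cast tables. Stat2 changed by -1.51 (adjusted p = 0.0207, edgeR) and -1.74 (adjusted p = 2.83e-04). In the 129 tables the Stat2 call was lost without naive replicate 1 (adjusted p = 0.0558), without stimulated replicate 2 (0.0670) and without stimulated replicate 3 (0.0569), and with no filter on low counts (0.0625).

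**Figure D3:**
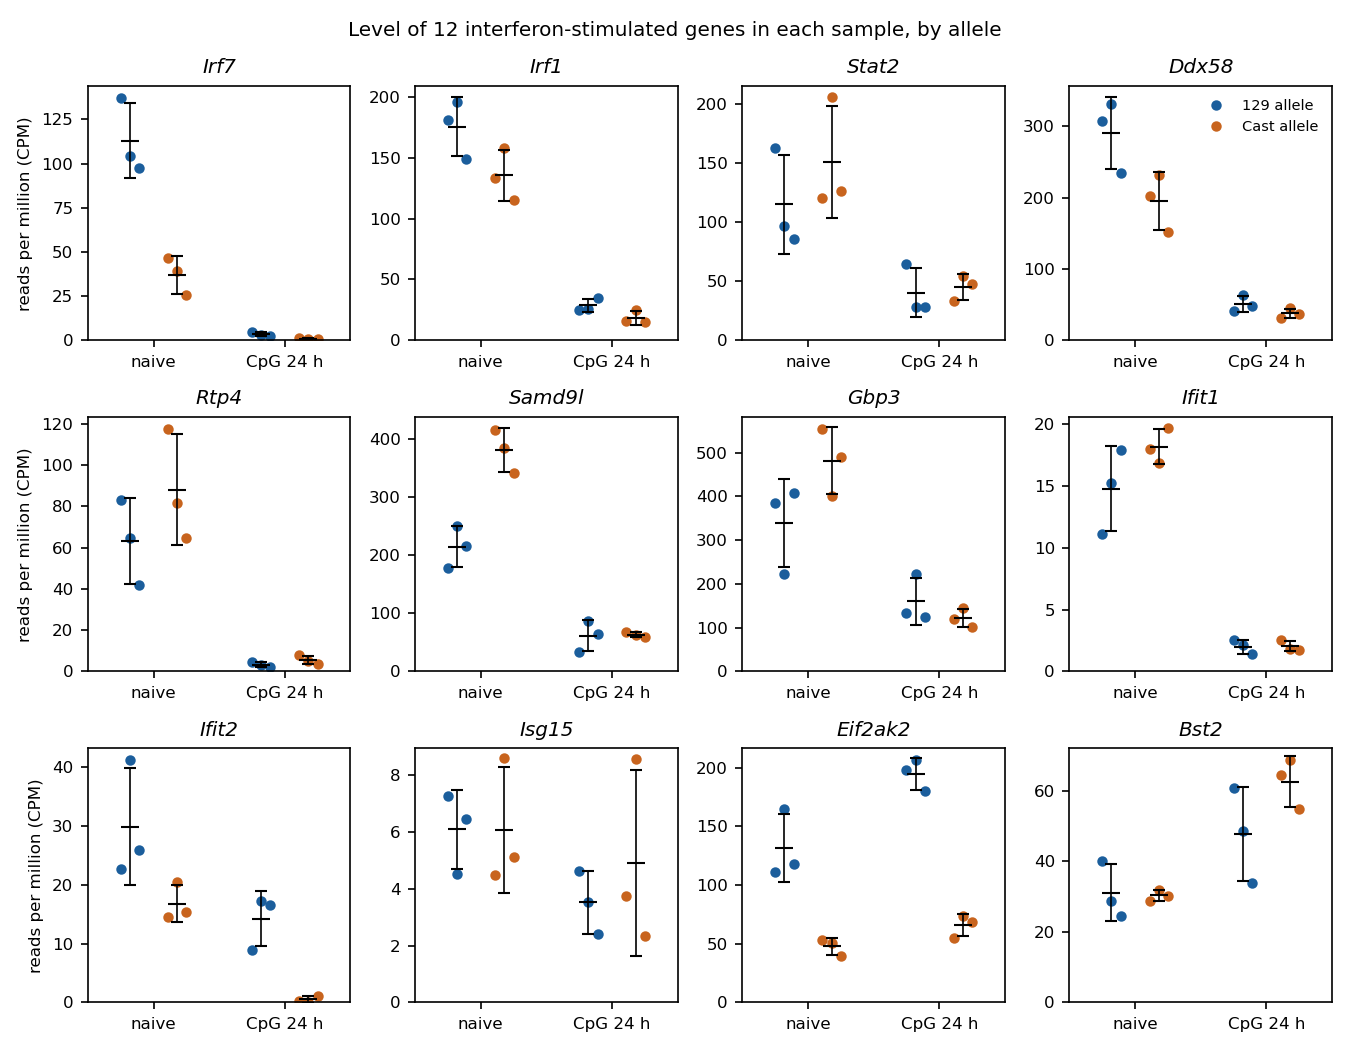
Level of 12 members in each sample (y axis, CPM) by group (x axis) and allele (129 blue, Cast orange), with the mean and SD of 3 samples in black. Irf7 and Rtp4 stand near 0 after CpG on both alleles, Ifit2 does so on the Cast allele, the Isg15 groups overlap, and Eif2ak2 and Bst2 are higher after CpG.

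Among the 6 nucleic acid sensors, 4 fell on both alleles, 1 rose on both and Ifih1 did not pass on either. Ddx58 encodes RIG-I, the cytoplasmic sensor of short or uncapped viral RNA. Its level was 307, 331 and 235 CPM in naive and 41.8, 63.0 and 47.8 CPM in stimulated 129 tables. The drop was -2.51 (SE 0.20) on the log2 scale there and -2.37 (SE 0.20) in the Cast tables. Zbp1, a sensor of left-handed Z-form nucleic acid that can start cell death, changed by -1.43 and -1.78. Dhx58, or LGP2, a regulator of RIG-I and MDA5, changed by -1.22 and -1.10, and its Cast call was lost without naive replicate 2 (adjusted p = 0.0725) and without stimulated replicate 3 (0.0518). Adar, which edits adenosine to inosine in double-stranded RNA and so hides it from these sensors, changed by -1.01 and -0.93. Ifih1, or MDA5, the sensor of long double-stranded RNA, gave -0.73 (adjusted p = 0.0826, edgeR) in the 129 tables and 0.03 (adjusted p = 0.950) in the Cast tables, and its groups overlapped. With the replicate number as a block, Ifih1 passed in the 129 tables (adjusted p = 0.0131).

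Eif2ak2 went the other way from its group. It encodes PKR, the kinase that halts translation on sensing double-stranded RNA. On the 129 allele its level was 111, 165 and 118 CPM in naive and 198, 206 and 180 CPM in stimulated samples. On the Cast allele it was 53.6, 50.2 and 39.3 CPM against 55.2, 73.9 and 68.3 CPM. The groups did not overlap on either allele, and the rises were small, 0.57 (SE 0.17, adjusted p = 0.0232, edgeR) and 0.46 (SE 0.18, adjusted p = 0.0441). Neither call was firm. Leaving out naive replicate 1 or 3 or stimulated replicate 1 or 2 lost the 129 call (adjusted p of 0.0608 to 0.0746), and leaving out naive replicate 2 or 3 or stimulated replicate 2 or 3 lost the Cast call (0.0585 to 0.127), which was also lost with DESeq2 (0.0802) and with its size factors in edgeR (0.0515).

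The 2'-5' oligoadenylate synthetases make the second messenger that activates RNase L. Of this group, Oas2, Oas3 and Oasl2 were barely detected, and Oas1a had no row. Oasl1, a family member that lacks the enzyme activity and limits Irf7 translation in mice, was the only one with enough reads to test. It changed by -1.46 (SE 0.19) in the 129 tables and -1.71 (SE 0.29) in the Cast tables. Oas2 had 4, 3 and 1 naive reads in the 129 tables and 1, 2 and 1 in the Cast tables, with no read in any stimulated sample. Set against a floor of 3 reads over the group, Oas2 was 3.36-fold lower after CpG in the 129 tables and 1.68-fold lower in the Cast tables. Such folds take the few naive reads as exact, so the true fall may be smaller or absent. Oasl2 had 8 naive reads in all from the 129 allele, 6 from the Cast allele and none after CpG (3.36-fold and 2.53-fold lower by the same floor). Oas3 had 4, 12 and 4 naive reads against 4, 3 and 0 after CpG on the 129 allele and 3 reads in all on the Cast allele.

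The virus-restricting effectors held several of the largest falls. Families with near-identical copies (Ifit, Mx, Gbp, Oas, Ifitm and Trim30) can share reads, so values of their single members are uncertain in that respect. Rsad2 encodes viperin, an enzyme that makes a chain-terminating nucleotide, and its promoter core is shown above. It had 47, 30 and 104 naive reads and 0, 1 and 2 stimulated reads in the Cast tables, a ratio of 76.2 (95% counting interval 25.7 to 373) after scaling by depth. In the 129 tables it had 36, 23 and 6 reads against 1, 1 and 0, a ratio of 40.9 (10.9 to 345), too few for the filter. Cmpk2, the neighbouring gene, which encodes a mitochondrial nucleotide kinase, changed by -2.65 and -2.21. Ifit1, which binds viral RNA lacking cap methylation and carries 2 ISRE cores, went from 11.1, 15.3 and 17.9 CPM to 2.50, 2.11 and 1.39 CPM on the 129 allele. On the Cast allele Ifit1 went from 18.0, 16.9 and 19.6 CPM to 2.51, 1.84 and 1.77 CPM. These are changes of -2.85 (SE 0.39) and -3.13 (SE 0.31).

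Ifit2, its neighbour on chromosome 19, fell on both alleles. The 129 allele stood at 22.6, 41.3 and 25.9 CPM in naive and 8.93, 17.2 and 16.6 CPM in stimulated samples, a change of -1.07 (SE 0.35, adjusted p = 0.0326, edgeR). The Cast allele stood at 14.6, 20.4 and 15.4 CPM against 0.313, 0 and 1.18 CPM, a change of -4.94 (SE 0.59, adjusted p = 7.71e-05). The 129 call was lost without naive replicate 2 or 3 or stimulated replicate 1 or 3 (adjusted p of 0.0526 to 0.120), and the Cast call was made each time a sample was left out. The test of the difference between the alleles in this change did not pass (adjusted p = 0.0585, edgeR's quasi-likelihood test), and its other values are given with the allele ratios.

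Of the other effectors, Samd9l, a restriction factor of poxviruses, went from 179, 250 and 216 CPM to 33.6, 86.6 and 64.1 CPM on the 129 allele and from 417, 386 and 341 CPM to 68.0, 62.2 and 59.4 CPM on the Cast allele. These are changes of -1.81 (SE 0.34) and -2.59 (SE 0.13). Mx1, a dynamin-like GTPase that traps viral nucleocapsids, changed by -4.06 (SE 0.56) in the 129 tables. Mx2, its paralog, changed by -1.70 (SE 0.24) in the Cast tables. Ifitm3, which blocks virus fusion at the endosome, changed by -3.74 (SE 0.39) on the 129 allele. Its 8, 7 and 7 naive reads from the Cast allele became 0, 0 and 0. Set against a floor of 3 reads, with the naive reads taken as exact, that is 9.26-fold lower. Isg20, an exonuclease, changed by -1.59 (adjusted p = 0.00307, edgeR) in the Cast tables and gave -0.62 (adjusted p = 0.0976) in the 129 tables.

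Bst2, or tetherin, which holds budding virus particles on the cell surface, was the exception among the effectors. On the Cast allele it stood at 28.8, 31.9 and 30.3 CPM in naive and 64.6, 68.7 and 54.7 CPM in stimulated samples, a rise of 1.04 (SE 0.16, adjusted p = 3.26e-04, edgeR). On the 129 allele it stood at 40.2, 28.9 and 24.4 CPM against 60.7, 48.6 and 34.0 CPM. Those groups overlapped, and the change of 0.61 (SE 0.28) had an adjusted p of 0.0966. With the replicate number as a block it passed, at 0.00939. The promoter of Bst2 holds ISRE cores, and so do those of Rsad2, Ifit1 and Gbp2, which fell.

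All 3 guanylate-binding proteins, GTPases that attack the membranes around intracellular microbes, fell on both alleles. Gbp2, whose promoter is shown above, changed by -1.51 (SE 0.23) in the 129 tables and -2.14 (SE 0.49) in the Cast tables. Gbp7 changed by -1.16 (SE 0.22) and -1.64 (SE 0.27). Gbp3 went from 554, 400 and 491 CPM to 121, 144 and 102 CPM on the Cast allele, a change of -1.98 (SE 0.17, adjusted p = 1.16e-05, edgeR). On the 129 allele Gbp3 went from 386, 223 and 407 CPM to 134, 222 and 125 CPM, where naive replicate 2 nearly equalled stimulated replicate 2. That change, -1.08, had an adjusted p of 0.0243 without and 0.148 with the replicate number as a block, and leaving out naive replicate 1 or 3 or stimulated replicate 1 or 3 lost it (0.0739 to 0.0823), as did no filter on low counts (0.0764).

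The ISG15 and ubiquitin ligase system moved least. Isg15 encodes a ubiquitin-like protein that is attached to other proteins during the response, and it is widely used as a marker of interferon exposure. Here it had 17, 11 and 13 naive and 13, 10 and 7 stimulated reads in the 129 tables. In the Cast tables the Isg15 reads were 12, 24 and 12 against 12, 28 and 8. The groups overlapped on each allele, with changes of -0.78 (SE 0.41, adjusted p = 0.147, edgeR) and -0.32 (SE 0.52, adjusted p = 0.609), so no difference was detectable at this depth. Usp18, the protease that removes Isg15 and restrains the interferon receptor, had 16, 7 and 8 naive Cast reads and 1, 0 and 0 after CpG, a ratio of 39.2 (95% counting interval 6.53 to 1596). In the 129 tables Usp18 had 6 naive reads in all and 1 after CpG, a ratio of 7.55 with an interval of 0.917 to 347, which includes 1.

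Parp14, an ADP-ribosyltransferase, fell on both alleles, with log2 fold changes of -1.28 (SE 0.17) and -1.42 (SE 0.14). Its neighbours Parp9 and Dtx3l, which form a ubiquitin ligase complex with each other, each passed on 1 allele. Parp9 changed by -1.25 (adjusted p = 0.0113, edgeR) in the 129 tables and gave -0.30 (0.491) in the Cast tables. Dtx3l gave -0.71 (0.118) in the 129 tables, passing with the block (0.0358), and changed by -0.88 (0.00961) in the Cast tables. Trim25, the ligase that supports RIG-I signalling, gave 340, 236 and 148 CPM against 163, 157 and 37.8 CPM on the 129 allele (-1.02, adjusted p = 0.205, and 0.00843 with the block). On the Cast allele Trim25 changed by -1.52 (adjusted p = 8.59e-04). Trim30a, a regulator of Toll-like receptor signalling, gave -0.43 (0.400) and -0.42 (0.0518), and with the block the Cast value passed (0.0156).

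Rtp4, a receptor transport protein induced by type I interferon, fell steeply on both alleles. It went from 83.3, 64.8 and 41.8 CPM to 4.64, 3.17 and 2.08 CPM on the 129 allele and from 118, 81.8 and 64.9 CPM to 7.84, 5.21 and 3.82 CPM on the Cast allele. The changes were -4.25 (SE 0.38, adjusted p = 8.95e-05, edgeR) and -3.97 (SE 0.31, adjusted p = 7.15e-06). Ifi35, a leucine zipper protein of the response, changed by -0.59 (adjusted p = 0.0234, edgeR) and -0.80 (0.00108). Its 129 call was lost without naive replicate 1 or stimulated replicate 1 or 3 (0.0710 to 0.0850). Ifi44 stood out by sample. Its 129 reads were 5, 152 and 2 in naive and 1, 14 and 0 in stimulated samples, so replicate 2 was the high one in each group, and its Cast reads were 7, 3 and 0 against none. Xaf1, which opposes the apoptosis inhibitor Xiap, had 1 to 7 reads per sample in the 129 tables and 0 to 4 in the Cast tables, too few to compare.

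The wider interferon pathway was read from a list of 48 other genes. On the 129 allele, 19 of the 36 tested fell (52.8%) and 4 rose, where 27.0% of all genes fell and 28.2% rose. On the Cast allele, 19 of the 35 tested fell (54.3%) and 3 rose, where 31.5% of all genes fell and 30.7% rose. The same shares over all genes are the background of the smaller groups that follow. The interferon genes themselves were close to silent, since 7 of 10 had a row in the 129 tables and the whole group gave 1 read of Ifng and 1 of Ifnk over 6 samples, and in the Cast tables none of 5 had a read. Of 9 receptor chains and kinases, 6 fell on the 129 and 7 on the Cast allele, and none rose. Ifngr1, a chain of the interferon gamma receptor, changed by -2.17 and -2.30, and Jak2, a kinase of that receptor, by -1.77 and -1.35. Ifnar1, a chain of the type I receptor, changed by -1.26 and -1.06. Among the sensors and adaptors that induce interferon, 5 of 11 fell and 1 rose on the 129 allele, and 6 of 10 fell and 1 rose on the Cast allele. Tlr3, the endosomal sensor of double-stranded RNA, changed by -2.18 and -3.35, Mb21d1, the DNA sensor cGAS, by -2.21 and -1.49, and Unc93b1, which carries Toll-like receptors to the endosome, by -1.18 and -1.29. Mavs, the adaptor of RIG-I and MDA5, rose by 0.50 and 0.67. The Mavs calls were lost in 5 of 6 fits that left out a sample on the 129 allele (adjusted p of 0.0708 to 0.0869, edgeR) and 3 of 6 on the Cast allele (0.0682 to 0.0802), and the 129 call of Tlr3 in 3 of 6 (0.0516 to 0.0660). DESeq2 did not call Mavs on the 129 allele (adjusted p = 0.0699). With no filter on low counts, edgeR lost the 129 call of Mavs (0.0521) and the Cast call of Jak2 (0.0541).

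Genes that restrain the response were called in both directions. Of 11 tested inhibitors, 5 fell (45.5%) and 2 rose on the 129 allele, and 4 fell (36.4%) and 2 rose on the Cast allele. Over all genes 27.0% and 31.5% fell, so the Cast count is near the background. Socs3, an inhibitor of Janus kinases, went from 16.2, 19.8 and 13.4 CPM to 41.1, 120 and 39.2 CPM in the 129 tables, with stimulated replicate 2 the highest. It rose by 2.01 (SE 0.50) and 2.09 (SE 0.51). The 129 call was lost without naive replicate 1 (adjusted p = 0.0507, edgeR) or 3 (0.0504), and the Cast call with no filter on low counts (0.0837). Ptpn11, the phosphatase SHP-2, rose by 0.69 and 0.80, whereas Foxo3, which represses Irf7, changed by -1.44 and -1.54, Trim21 by -1.19 and -1.15, and Ptpn6, the phosphatase SHP-1, by -1.06 and -0.91. Of 5 other IRF family members tested, 3 fell (60%) and 1 rose on the 129 allele, and 2 fell (40%) and 0 rose on the Cast allele. Irf2 (-1.79 and -1.52) and Irf5 (-0.85 and -0.90) fell on both alleles.

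Markers of several other cell types moved with the members. All 15 tested red pulp macrophage markers fell in both sets of tables. In the 129 tables their sum was 7490, 3629 and 4398 CPM in naive replicates 1, 2 and 3. The summed members were 3201, 2976 and 2542 CPM in the same samples. Naive replicate 1 had the highest macrophage sum. Without it, 19 of 31 tested members fell on the 129 allele, where 23.2% of all genes fell. On the Cast allele 24 of 30 fell, where 27.5% of all genes fell. The naive samples kept in those fits still held macrophage transcripts. Markers of T cells summed to 39.6 to 53.3 CPM in naive and 4.64 to 8.80 CPM in stimulated 129 tables, and those of neutrophils to 5.36 to 25.9 CPM against 0 to 0.347 CPM. Natural killer cell markers summed to 12.0 to 20.6 CPM against 2.43 to 6.33 CPM, erythroid markers to 42.9 to 109 CPM against 1.06 to 1.43 CPM and conventional dendritic cell markers to 152 to 205 CPM against 83.9 to 101 CPM. Markers of plasmacytoid dendritic cells, the main interferon producers, did not fall as a sum in the 129 tables, with 289, 342 and 339 CPM in naive and 362, 330 and 400 CPM in stimulated samples. In the Cast tables they summed to 231, 301 and 247 CPM against 221, 226 and 194 CPM. Of 4 such markers tested in the 129 tables, Siglech (-6.77) and Pacsin1 (-2.64) fell and Ly6d (1.29) rose. Of 3 tested in the Cast tables, Pacsin1 (-3.06) fell and Ccr9 (2.50) rose. Cox6a2 had no read in any sample, and Siglech had 12, 14 and 10 naive reads and 0 after CpG in the 129 tables. Plasma cell markers summed to 323 to 512 CPM in naive and 336 to 377 CPM in stimulated 129 tables. Of the 4 tested, 2 rose and 2 fell in the 129 tables, and 2 rose and 1 fell in the Cast tables. B cell markers fell too, 7 of 8 on each allele, among them Fcer2a, the gene of the sorted surface protein, by -5.22 in the 129 tables. The part of these cells, and of the B cells' own markers, in the members' fall was not tested.

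The alleles of 30 matched members could be compared within each sample. The Cast share is the Cast reads over the Cast and 129 reads, and over all matched autosomal genes it averaged 52.7% ± 0.793 in naive and 52.9% ± 0.812 (SD, n = 3) in stimulated samples. In naive cells 10 members differed between the alleles, 3 toward Cast and 7 toward 129, where 26.6% of the 9783 genes tested differed by edgeR's quasi-likelihood test. After CpG 10 differed, 2 toward Cast and 8 toward 129, where 25.0% of genes differed. The members' share of calls was thus near the background in each group. With 1 library size for both alleles, which moved the median log2 ratio of all genes from -0.05 to 0.12 in naive and from 0.01 to 0.12 in stimulated cells, 41.5% of all naive calls toward Cast became 60.8%, and 49.5% became 60.6% after CpG. The members then split 6 toward Cast and 5 toward 129 in naive cells and 2 and 6 after CpG, where 25.1% of all genes were called in each group. With the replicate number as a block, 20 members passed in naive cells (45.0% of all genes) and 18 after CpG (45.2%). In naive cells the block added Irf1 (adjusted p = 0.00361, edgeR), Irf9 (0.00867), Ifit2 (0.00984) and Gbp2 (0.0129) toward 129. It added Samd9l (2.43e-14), Trim25 (1.40e-07), Trim30a (2.95e-04), Stat2 (4.76e-04), Rsad2 (6.41e-04) and Dtx3l (0.00285) toward Cast. After CpG it added Gbp2 (5.49e-04), Irf1 (0.00469) and Gbp3 (0.0353) toward 129, and Trim30a (1.20e-04), Bst2 (0.00126), Trim25 (0.00456), Dtx3l (0.00785) and Stat2 (0.0336) toward Cast. Those calls concern the mean of these 3 replicates, because differences in allele ratio between replicates are then taken out of the spread.

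**Figure D4:**
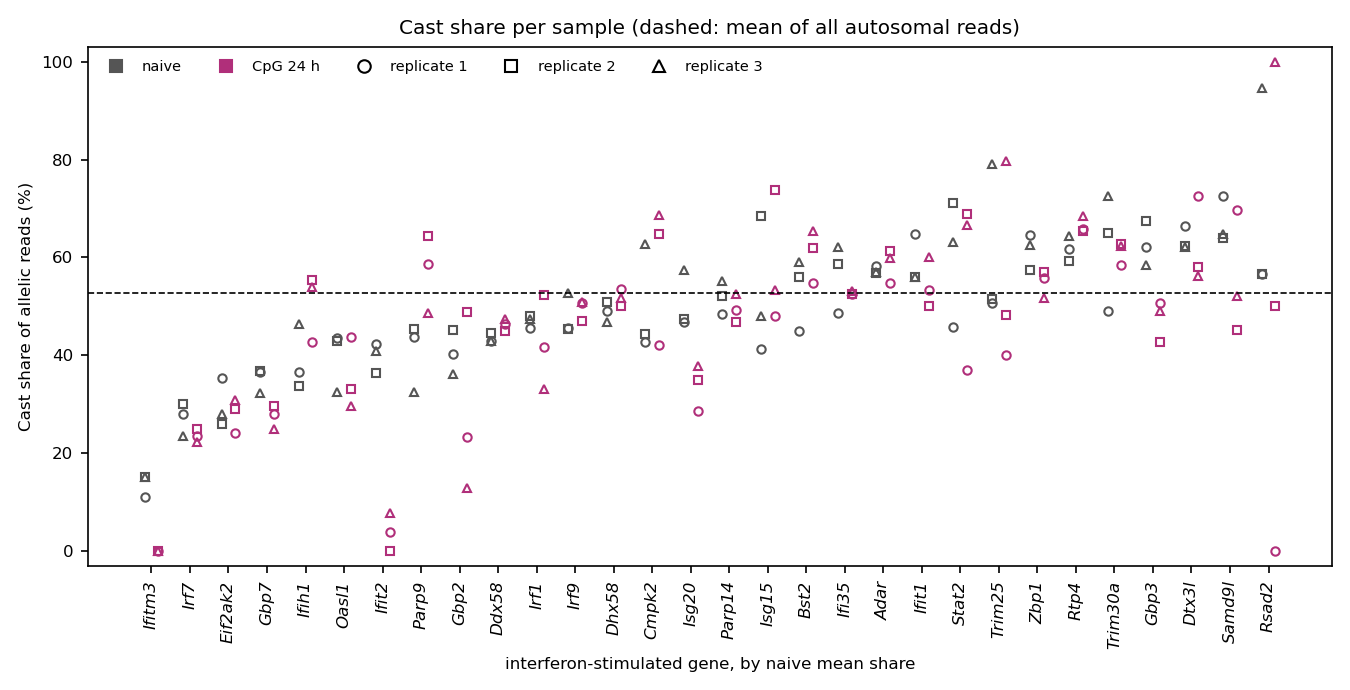
Cast share of allelic reads (y axis, percent) in each sample for the 30 tested members (x axis, ordered by naive mean), naive in grey and CpG 24 h in magenta, with a symbol for each replicate number and a dashed line at the mean over all autosomal reads. Ifitm3, Irf7, Eif2ak2 and Gbp7 lie below the line in all 6 samples, Ifit2 drops to near 0 after CpG, and Rtp4 lies above the line in all 6.

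The members that differed in the same direction in both groups were Irf7, Eif2ak2, Gbp7, Ifitm3, Oasl1, Ddx58 and Rtp4. They are described singly, because no share of all genes called in both groups is given here. Requiring at least 10 reads over both alleles in each sample left Ifitm3 and Irf7 untested. In that setting 8 of 27 members passed in each group, where 28.3% (naive) and 27.0% (after CpG) of all genes did. Irf7 leaned to 129, with Cast shares of 28.0, 30.1 and 23.4% in naive and 23.5, 25.0 and 22.2% in stimulated samples, the latter from 17, 12 and 9 reads. Its log2 ratio of Cast over 129 was -1.60 (SE 0.15, adjusted p = 2.81e-04, edgeR) and -1.74 (SE 0.27, adjusted p = 0.00355), a 3.03-fold and a 3.35-fold difference. Eif2ak2 had Cast shares of 35.4, 25.9 and 28.0% and then 24.1, 29.1 and 30.9%, from at least 329 reads in each sample, with log2 ratios of -1.43 and -1.47. So the Cast allele of the PKR gene was 2.69-fold below its 129 allele in naive and 2.77-fold below it in stimulated samples. The rises of the 2 alleles with CpG were small and their calls not firm, as given above. Gbp7 had Cast shares of 36.7, 36.8 and 32.4% and then 27.9, 29.7 and 25.0%, with log2 ratios of -1.05 and -1.49.

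Ifitm3 had Cast shares of 11.1, 15.2 and 15.2% in naive cells, a log2 ratio of -2.82 (SE 0.38, adjusted p = 0.00480, edgeR). After CpG it had 0 Cast reads of 5, 5 and 3, which allow a share of up to 43.4, 43.4 and 56.1% (upper Wilson 95% limits, for counting error only). Oasl1 (-0.78 and -0.97) and Ddx58 (-0.56 and -0.32) leaned less to 129, and with 1 library size the naive Oasl1 call (adjusted p = 0.0824, edgeR) and the Ddx58 call after CpG (0.0926) were lost. DESeq2 did not make that Ddx58 call either (0.0719). Leaving out a sample lost the naive Oasl1 call in 5 of 6 fits (0.0555 to 0.184), and the Oasl1 call after CpG was lost without stimulated replicate 2 (0.0852) or 3 (0.0871). Of the members called in both groups, only Rtp4 leaned to Cast, with Cast shares of 61.7, 59.2 and 64.4% and then 65.8, 65.4 and 68.4%. Its log2 ratios were 0.51 (adjusted p = 0.0211) and 0.87 (adjusted p = 0.0334), and DESeq2 did not call it (0.0658 and 0.114). Leaving out 1 of the 3 naive samples lost its naive call (0.0666 to 0.125), and leaving out 1 of the 3 stimulated samples lost the other (0.131 to 0.192).

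Others passed in 1 group alone in the fit without the block. In naive cells these were Ifih1 toward 129 (-0.84, adjusted p = 0.0336, edgeR), Gbp3 toward Cast (0.57, 0.0162) and Zbp1 toward Cast (0.50, 0.0457). After CpG they were Ifit2 (-4.64, 7.29e-04) and Isg20 (-1.06, 0.0369) toward 129 and Adar toward Cast (0.40, 0.0330). Of the 6 fits that left out a sample, 4 lost the calls of Ifih1 and Zbp1, 5 that of Isg20 and 6 that of Adar. The Gbp3 call was lost without naive replicate 1 (0.0699) or 2 (0.0878). With 1 library size Ifih1 (0.0853) and Isg20 (0.0564) were lost too, and DESeq2 did not call Zbp1 (0.0841) or Adar (0.141). DESeq2's size factors in edgeR also lost Adar (0.0507). With the block, Ifit2 passed toward 129 in naive cells as well, and Gbp3, toward Cast in naive cells, passed toward 129 after CpG. Passing in 1 group alone does not show a difference between the groups.

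That difference was tested directly, as a change of the Cast to 129 ratio with CpG. None of the 30 members passed in edgeR's quasi-likelihood test, where 0.920% of genes did, and 4 members had an unadjusted p under 0.05. Ifit2 came nearest. Its Cast share was 42.4, 36.3 and 40.9% of 92, 157 and 88 reads in naive cells and 3.85, 0 and 7.69% of 26, 49 and 52 reads after CpG, so the groups lay far apart. The change of its log2 ratio was -3.86 (SE 0.67, adjusted p = 0.0585, edgeR). No fit that left out a sample called it. DESeq2 called Ifit2 alone (adjusted p = 2.58e-04), where 1.42% of all genes were called. With the replicate number as a block, 3 members passed, where 8.76% of all genes did: Ifit2 (-3.86, adjusted p = 9.69e-07), Gbp3 (-0.83, 1.73e-04) and Samd9l (-0.65, 5.70e-04). Gbp3 had Cast shares of 62.0, 67.4 and 58.4% in naive and 50.7, 42.7 and 49.1% in stimulated cells, with no overlap. Samd9l had 72.6, 64.0 and 64.8% against 69.8, 45.2 and 52.2%, and each replicate number was lower after CpG than before.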

How the data were processed

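Total RNA was extracted with TRIzol and made into libraries with a stranded total RNA kit, per the labels' protocols. STAR, featureCounts, Subread 2.0.0 and mm10 are named, per the submitters' processing notes, with no role given. The deposited values are whole-number read counts per gene, 1 table per strain annotation and sample, and they end in the extra rows that htseq-count writes, per the file contents. How a read was given to a strain is not given in the sources used here. A read must cover a strain difference to be assigned, so few of a gene's reads may count, and genes without such differences lose reads. Genes without a name held 5.10 to 7.59% of gene reads in the 129 tables and 14.4 to 19.7% in the Cast tables. The row for no annotated gene held 62.6 to 67.1% of aligned reads in naive and 48.1 to 56.7% in stimulated 129 tables. In the Cast tables it held 57.9 to 62.1% and 44.5 to 52.3%, so the groups did not overlap in either set. These extra rows stayed out of all totals.

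Counts were tested with edgeR 4.0.16 in R 4.3.3 (quasi-likelihood test, robust, TMM factors, filterByExpr, Benjamini-Hochberg adjustment over all genes tested, threshold 0.05), separately in the 129 and Cast tables. The SE was derived from the F statistic. For the allele ratio, 28374 genes were matched by name and chromosome, and 1 model over the 12 tables held a term for each sample, with its own library size for each table over matched autosomal genes. Alternatives were DESeq2 1.42.0, other factors and filters, a fold minimum, summed alleles, the replicate block and leaving out each sample. The procedure was tested on simulated counts. Where a stimulated group had no reads, folds are set against 3 reads over the group, with the naive reads taken as exact. Ratios from 1 to 3 reads carry exact counting intervals. Without molecular identifiers, reads of 1 molecule can be counted more than once. Intervals thus cover counting error only, and the folds against 3 reads do not cover that of the naive reads.

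The sample titles give the replicate numbers. Deviations from the group means correlated between naive and stimulated samples of the same number. Over genes, r was 0.56, 0.44 and 0.61 in the 129 tables and 0.23, 0.16 and 0.25 in the Cast tables. Between different numbers r was negative, which partly follows because deviations from a group mean cancel out. The main fits did not pair samples by number. The number served as a block in an alternative fit, and the blocked value is given where it changes a member's call.

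The members, role groups and other lists were chosen with earlier results of these data known. Genes were named by rule: in each role up to 3 members per direction called in both sets of tables, for alleles up to 8 called in both groups and 4 in 1 group, and up to 3 genes per direction of each pathway list. Further members were named to account for all of the list. A gene that the rule selects from the pathway lists is not reported here.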

Additional observations from a re-analysis of the deposited data

Results flagged for a closer look

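In the fit with the replicate number as a block, 3 members had a different response to CpG on the 2 alleles, by the test of the difference itself in edgeR. With 30 members tested and 8.76% of all genes called in that fit, the count is near the background. The log2 ratio of Cast over 129 changed by -3.86 for Ifit2 (adjusted p = 9.69e-07), by -0.83 for Gbp3 (1.73e-04) and by -0.65 for Samd9l (5.70e-04). All 3 moved toward the 129 allele. Without the block the same changes were -3.86 (SE 0.67), -0.82 (SE 0.18) and -0.63 (SE 0.42), and their adjusted p-values were 0.0585, 0.104 and 0.672.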

How the results depend on the processing

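The counts of members called with CpG stayed within 1.5 times of the reported ones under every alternative run, with 19 to 24 members lower in the 129 tables and 23 to 25 in the Cast tables when a sample was left out (23.2 to 24.9% and 27.5 to 29.8% of all genes), and 26 lower with summed alleles (34.4% of all genes). Requiring a log2 fold change of at least 1 cut the called pathway genes. They went from 23 of 36 tested to 14 in the 129 tables and from 22 of 35 to 14 in the Cast tables. Over all genes the called share went from 55.2% to 38.3% (129) and from 62.2% to 41.6% (Cast). Signs turned only for members that did not pass. Trim30a in the 129 tables ran from -0.70 to 0.066 when a sample was left out, and was above 0 without naive replicate 1. In the Cast tables Isg15 ran from -0.97 to 0.052, and was above 0 without naive replicate 2 and without stimulated replicate 3 (0.039). Ifih1 in the Cast tables ran from -0.40 to 0.24, and was below 0 without naive replicate 2 (-0.088), without stimulated replicate 2, with the replicate block (-0.024) and with summed alleles (-0.36).

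Members that differed between alleles numbered 20 in naive cells and 18 after CpG with the replicate block, and 5 to 12 and 6 to 10 when a sample was left out, where 16.9 to 23.4% and 17.6 to 23.3% of all genes were called. The lowest counts came without naive replicate 2 (5 members, 16.9% of all genes) and without stimulated replicate 3 (6 members, 17.6% of all genes), near the background of those fits. For the change of the allele ratio, DESeq2 gave 1, the replicate block 3 and every fit that left out a sample 0. Beyond the calls named in the results, the block moved no member's CpG call. The cause of these changes was not tested. Depth limits the 6 members with a row that could not be tested in either set of tables, and Isg15.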

Other observations

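Some members had Cast shares that followed the replicate number more than the treatment. They were singled out after their values had been seen, so no test is given. Trim25, the ligase that acts with RIG-I, had Cast shares of 50.7, 51.6 and 79.1% in naive and 40.1, 48.3 and 79.7% in stimulated samples, from at least 538 reads each, so replicate 3 was high in both groups. Stat2, a subunit of ISGF3, had 45.7, 71.0 and 63.2% and then 36.9, 68.8 and 66.7%, and replicate 1 was low in both groups. Rsad2, which encodes viperin, had 56.6, 56.6 and 94.5% in naive cells, with replicate 3 the high one. It had only 1, 2 and 2 reads after CpG, too few to show whether its share followed the replicate number there. Replicate 3 stood apart for Trim25 (chromosome 11) and, in naive cells alone, for Rsad2 (chromosome 12), and replicate 1 for Stat2 (chromosome 10). What separates the replicates was not tested.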
